A study of Mus musculus with 14 samples.

Results

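The immediate early genes were followed in the tail intervertebral discs (IVDs) of mice with type 2 diabetes and of their controls. The 10 genes were listed by name, with no measured value in the rule, and are Fos, Fosb, Fosl2, Jun, Junb, Atf3, Egr1, Nr4a1, Ier2 and Dusp1. They are 10 of 55487 genes counted in bulk RNA-seq. All 10 exceeded 1 CPM (counts scaled to a common library size) in at least 3 libraries, the filter that left 16915 genes for testing.

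Immediate early genes are transcribed within minutes of a stimulus, without new protein synthesis, when kinases such as ERK, JNK and p38 activate transcription factors already bound at their promoters. Fos and Jun family proteins pair into the AP-1 transcription factor, Egr1 and Nr4a1 are transcription factors of other families, and Dusp1 removes phosphate from the kinases that started the response. In cartilage, tendon and disc cells these genes are known to respond to loading, growth factors, cytokines and oxidative stress, and their mRNAs decay quickly, so that a tissue sample records the state of the cells at collection.

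The libraries were made from male mice in 2 cohorts, with 5 IVDs pooled per mouse and 1 library per mouse. In the first cohort, db/db mice (n = 3), homozygous for a leptin receptor (Lepr) mutation, were compared with db/+ heterozygous littermates (n = 3) at 3 months of age, as the study's methods give it. In the second cohort, C57BL/6J mice given a high-fat diet for 4 to 6 weeks, 1 injection of streptozotocin (STZ) at 100 mg/kg and 12 more weeks of the diet (STZ-HFD, n = 4) were compared with mice on standard chow injected with the citrate buffer alone (Con+Veh, n = 4). These mice were described as skeletally mature, at 12 weeks, and the labels give no age for them. Every cell of a db/db mouse carries the Lepr mutation, so that loss of leptin signaling and diabetes cannot be told apart in that model. Diet and STZ were given together, so that their parts cannot be told apart in the other. No group was set against a group of the other cohort, since cohort, age and genotype cannot be told apart between cohorts.

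Libraries held 16076908 to 58943169 counts, of which 28.1% to 60.2% were ribosomal RNA. A count of 3 in a library corresponded to 0.0509 to 0.187 CPM. All listed markers of the nucleus pulposus (6 of 6), the annulus fibrosus and tendon (4 of 4) and cartilage matrix (5 of 5) were above 0 in every group, and skeletal muscle transcripts were abundant too. The 8 muscle markers summed to 17298 to 18545 CPM in 3 STZ-HFD libraries, against 6646 CPM in the remaining one and 6632 to 9129 CPM in Con+Veh. The 5 cartilage matrix markers summed to 617 to 1312 CPM in STZ-HFD and 1406 to 3321 CPM in Con+Veh, without overlap. In the first cohort the cartilage sum was 5267 to 13550 CPM in db/db and 13125 to 23115 CPM in db/+, and the 5 adipocyte markers summed to 184 to 327 CPM against 70.7 to 102 CPM. The part of these differences in tissue makeup in the values below was not tested. In bulk IVD RNA, fewer cells of a type and less RNA per cell cannot be told apart. The quality weights that limma gave the libraries ran from 0.275 (Con+Veh replicate 1) to 3.05 (Con+Veh replicate 3). Lepr counts overlapped between db/db (309 to 534) and db/+ (374 to 472), so that they did not check the genotype labels.

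Egr1 was the immediate early gene with the clearest difference, which was in STZ-HFD. Its fitted change had the opposite sign in db/db, where the libraries of both groups overlapped. Its level was lower in each STZ-HFD IVD library than in each Con+Veh library, at 53.8 ± 18.8 CPM against 92.8 ± 14.2 CPM (SD, n = 4 each), and its mean was higher in db/db than in db/+, at 195 ± 61.9 CPM against 149 ± 71.6 CPM (SD, n = 3 each). Fos, Ier2 and Dusp1 were among the other members with lower means in STZ-HFD, and Junb, Atf3 and Ier2 were among those with lower means in db/db. None of the 10 genes passed the test in either model when corrected over all genes.

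**Figure D1:**
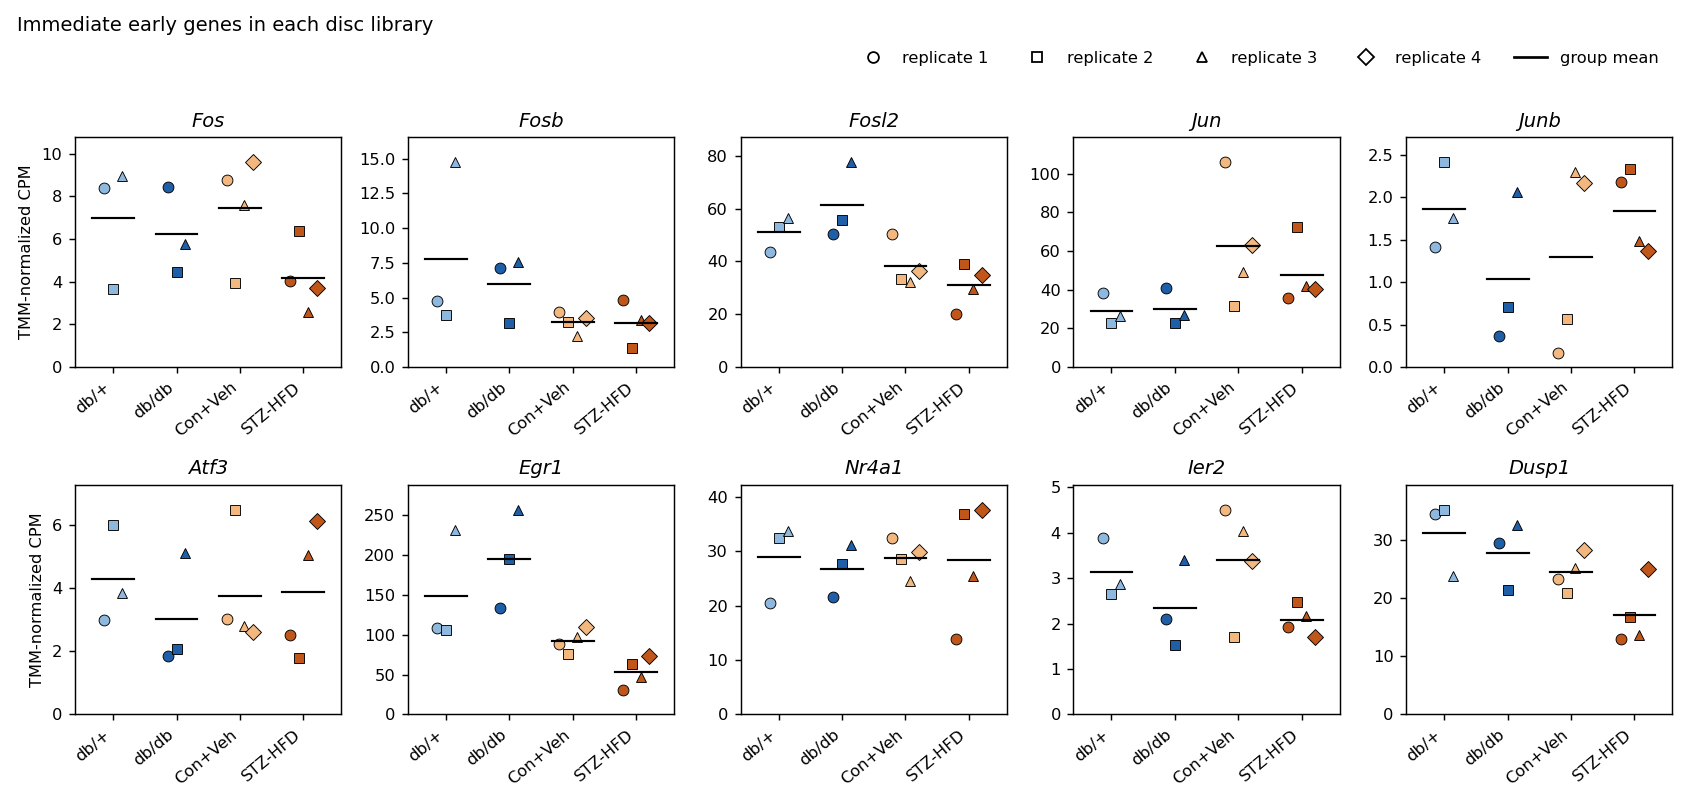
Level of each immediate early gene in each library (y axis, CPM with TMM scaling; points are libraries with marker shape for the replicate number, horizontal lines are group means; x axis, the 4 groups). The 4 STZ-HFD points of Egr1 lie between 31.2 and 73.7 CPM, under the 4 Con+Veh points at 76.0 to 110 CPM, and in the other 9 panels the groups of each model overlap.

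The members differed widely in abundance. Divided by exon length, Egr1 stood highest in db/+ at 33.2 ± 16.0 CPM per kb (SD, n = 3). Dusp1, Jun and Nr4a1 followed at 9.41 ± 1.94, 9.13 ± 2.56 and 8.24 ± 2.07 CPM per kb, which did not differ beyond their spread. Next came Fosl2 at 5.29 ± 0.687 and Fos at 2.98 ± 1.24 CPM per kb, each apart from its upper neighbour by more than the SDs. Ier2 (2.06 ± 0.429), Atf3 (1.99 ± 0.718), Fosb (1.24 ± 0.978) and Junb (0.810 ± 0.221 CPM per kb) closed the order, and each of them overlapped its neighbours within 1 SD. In db/db the level of Egr1 was 43.6 ± 13.8 CPM per kb and the order below it was Jun, Dusp1, Nr4a1, Fosl2, Fos, Ier2, Atf3, Fosb and Junb, with Jun to Fosl2 (9.40 to 6.34 CPM per kb) within their spread of each other as neighbours. The second cohort ranked Jun beside Egr1. In Con+Veh the values were 20.7 ± 3.16 CPM per kb for Egr1 and 19.6 ± 9.96 CPM per kb for Jun (SD, n = 4 each), and in STZ-HFD Jun came first at 14.9 ± 5.28 CPM per kb, ahead of Egr1 at 12.0 ± 4.18 CPM per kb. Neither pair differed beyond its spread. Junb and Fosb were the lowest members in all 4 groups.

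The members did not share 1 direction of change in either model. In STZ-HFD against Con+Veh, 6 of the 10 fitted changes were negative and 4 were positive, with a median log2 fold change of −0.18, beside −0.036 over all genes tested. The median was −0.34 with DESeq2, −0.35 with edgeR and −0.32 with limma without weights, beside 0.0077, −0.0095 and 0.0014 over all genes. Fosb and Nr4a1, positive in the main fit, were slightly negative in each of these fits, and Atf3 was so without weights. With the GC trend removed the median of the members was −0.097. None was called by limma with Benjamini-Hochberg adjustment (adjusted p under 0.05, with a log2 fold change of 1 or more in size), where 2.61% of all genes were called. At an unadjusted p under 0.05, limma counted 3 members, all lower (Egr1, Fos and Dusp1), where 17.9% of all genes passed and 9.54% passed as lower. The edgeR quasi-likelihood test and DESeq2 also called 0 members, and each counted 2 (Egr1 and Fos) at an unadjusted p under 0.05. Of all 16915 genes, edgeR called 29 and DESeq2 277, with 2136 and 2343 at that unadjusted p. In db/db against db/+, 7 changes were negative and 3 were positive, with a median of −0.13, beside −0.043 over all genes. There limma called 0 members, where 1.66% of all genes were called, and 0 members had an unadjusted p under 0.05 by limma, edgeR or DESeq2, where limma counted 21.1% of all genes. At that p, edgeR counted 1891 and DESeq2 2138 of all 16915 genes.

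**Figure D2:**
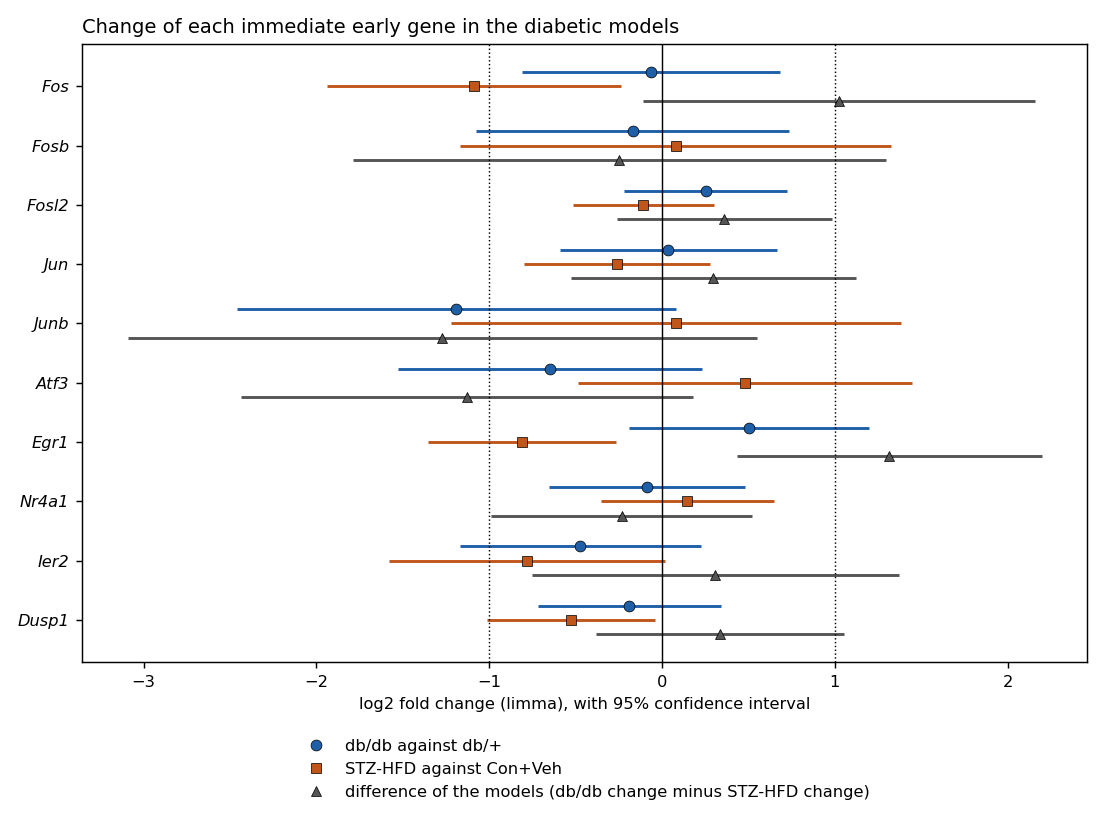
Fitted log2 fold change of each immediate early gene (x axis, limma; points with 95% confidence intervals) in db/db against db/+, in STZ-HFD against Con+Veh, and the difference between both changes. In STZ-HFD against Con+Veh the intervals of Egr1, Fos and Dusp1 lie under 0 before correction, and for the difference only that of Egr1 (0.43 to 2.20) excludes 0.

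Fos encodes c-Fos, which binds DNA as AP-1 only with a Jun partner. The gene (ENSMUSG00000021250) lies at chr12:85473890-85477273 on the forward strand of GRCm38. Fos was measured at 8.75, 3.93, 7.61 and 9.61 CPM in Con+Veh replicates 1 to 4 and at 4.03, 6.36, 2.58 and 3.72 CPM in STZ-HFD replicates 1 to 4. The libraries of STZ-HFD replicates 3 and 4 lay under all controls, and Con+Veh replicate 2 lay within the STZ-HFD range. The log2 fold change was −1.09 ± 0.40 (SE, 95% CI −1.94 to −0.24), with an adjusted p of 0.154 by limma with Benjamini-Hochberg adjustment. In the first cohort Fos was at 8.45, 4.46 and 5.78 CPM in db/db and at 8.39, 3.65 and 8.97 CPM in db/+. All 3 db/db values fell inside the db/+ range, and the log2 fold change was −0.06 ± 0.36 (SE).

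The promoters of 8 members were in the RefSeq promoter table (GRCm38.p6), from which the 250 bases upstream of each start were searched on both strands. Egr1 and Ier2 were not in the table used here. The search covered the cAMP response element (CRE) TGACGTCA, a shorter form of it (the short CRE) TGACG, which also lies inside the whole CRE, the AP-1 site TGANTCA, the TATA box TATAAA and the CArG box bound by serum response factor. A TGACG short CRE was present in 6 of 8 members (Fos, Fosb, Junb, Atf3, Nr4a1 and Dusp1), beside 17.8% of 32851 promoters in the table. The whole CRE was present in 1 of 8 (Dusp1), beside 1.55% of promoters, and the TATA box in 1 of 8 (Fos), beside 12.4%. The CArG box and the AP-1 site were in 0 of 8, beside 1.47% and 6.75% of promoters. This holds for the exact patterns within 250 bases only. Other forms of these sites and bases further upstream were not searched, so that a lack of such sites cannot be read from it. These matches describe letters in a window, and no binding was measured. The sequences of Fos and Dusp1 are shown because these genes had the lowest unadjusted p in STZ-HFD among members with a sequence, that of Nr4a1 because it held the most short CREs (4), and that of Junb because it was the lowest member per length in the first cohort. Capitals mark the matches, with CGTCA being TGACG read on the other strand. Fos is chr12:85473640-85473889 (forward), Nr4a1 chr15:101266596-101266845 (forward) and Junb chr8:84978749-84978998 (reverse). The Nr4a1 window lies before the start of the transcript Nr4a1-201 at 101266846. The main transcript Nr4a1-202, with mean shares of 77.3% to 92.3% in the 4 groups, starts at 101254269, and the bases upstream of it were not searched. Dusp1 is chr17:26508520-26508722 (reverse), without the bases nearest the start that an annotated exon covers.
Fos: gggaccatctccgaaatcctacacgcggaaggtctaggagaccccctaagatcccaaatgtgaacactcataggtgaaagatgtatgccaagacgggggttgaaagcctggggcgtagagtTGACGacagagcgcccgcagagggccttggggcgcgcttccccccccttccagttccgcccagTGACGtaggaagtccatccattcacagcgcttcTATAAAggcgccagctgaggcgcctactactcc
Dusp1: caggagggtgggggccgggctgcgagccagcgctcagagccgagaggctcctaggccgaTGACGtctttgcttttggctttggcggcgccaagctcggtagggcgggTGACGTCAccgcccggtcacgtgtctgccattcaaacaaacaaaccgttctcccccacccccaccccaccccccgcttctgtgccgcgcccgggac
Nr4a1: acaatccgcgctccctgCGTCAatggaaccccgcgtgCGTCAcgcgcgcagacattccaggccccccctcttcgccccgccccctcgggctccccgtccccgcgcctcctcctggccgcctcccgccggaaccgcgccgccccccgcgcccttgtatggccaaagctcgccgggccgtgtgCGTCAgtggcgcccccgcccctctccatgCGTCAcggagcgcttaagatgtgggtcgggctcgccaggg
Junb: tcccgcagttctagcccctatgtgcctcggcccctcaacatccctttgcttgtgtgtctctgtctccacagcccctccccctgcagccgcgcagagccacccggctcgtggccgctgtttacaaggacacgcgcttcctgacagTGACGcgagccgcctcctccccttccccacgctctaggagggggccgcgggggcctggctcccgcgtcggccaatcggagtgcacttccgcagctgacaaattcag

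The Fos short CREs began 129 and 66 bases before the start, and its TATA box 33 bases before it. The Dusp1 CRE began 143 bases before the start and a separate short CRE 191 bases before it. The short CRE of Junb began 106 bases before its start. The short CREs of Nr4a1 lay before the start of its lesser transcript Nr4a1-201. Log2 fold changes in STZ-HFD of the members with a short CRE were −1.09 (Fos), −0.53 (Dusp1), 0.08 (Fosb), 0.08 (Junb), 0.15 (Nr4a1) and 0.48 (Atf3). Those of the searched members without one were −0.26 (Jun) and −0.11 (Fosl2). A link between these sites and the changes was not tested. The longest transcripts of the 10 members had a GC content of 51.9% (Fos) to 62.6% (Junb), all above the median of 49.1% of genes tested, taken in the same way.

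Fosb and Fosl2 are the other Fos family members, and Fosb is known for a shortened protein, ΔFosB, that lasts longer than the full protein. Fosb (ENSMUSG00000003545, chr7:19302696-19310051, reverse) was at 7.14, 3.13 and 7.56 CPM in db/db and at 4.74, 3.72 and 14.8 CPM in db/+. The highest and the second lowest value both belonged to db/+, and db/+ replicate 3 stood well above the other 13 libraries. In the second cohort Fosb was at 3.94, 3.24, 2.21 and 3.53 CPM in Con+Veh and at 4.81, 1.34, 3.39 and 3.15 CPM in STZ-HFD. The STZ-HFD values reached both above and below all controls. Its log2 fold change was −0.17 ± 0.43 in db/db, and 0.08 ± 0.59 with STZ-HFD (SE).

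Fosl2 encodes Fra-2, a Fos family protein with a known role in chondrocytes and bone. It lies at chr5:32135801-32157842 (ENSMUSG00000029135, forward) and was the most abundant Fos family member in each group per length. Fosl2 was at 50.6, 55.8 and 77.7 CPM in db/db and at 43.7, 53.2 and 56.6 CPM in db/+. Only db/db replicate 3 exceeded all db/+ values. In the second cohort it was at 50.6, 33.5, 32.1 and 36.4 CPM in Con+Veh and at 20.1, 39.0, 29.7 and 34.7 CPM in STZ-HFD, with STZ-HFD replicates 1 and 3 under all controls. The log2 fold changes of 0.25 ± 0.22 in db/db (95% CI −0.22 to 0.73) and −0.11 ± 0.19 in STZ-HFD (95% CI −0.52 to 0.30) were smaller than the minimum for a call across their whole intervals.

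Jun encodes c-Jun, the AP-1 subunit phosphorylated by JNK, and lies at chr4:95049034-95052222 (ENSMUSG00000052684, reverse). Jun was at 106, 31.6, 49.1 and 62.8 CPM in Con+Veh and at 35.7, 72.5, 41.7 and 40.1 CPM in STZ-HFD. The Con+Veh libraries spanned a 3.35-fold range that enclosed all STZ-HFD values. Among db/db and db/+ mice Jun was at 40.6, 22.7 and 26.7 CPM in db/db and at 38.3, 22.7 and 26.3 CPM in db/+, almost the same values in both groups. Log2 fold changes were −0.26 ± 0.26 in STZ-HFD (95% CI −0.80 to 0.28) and 0.04 ± 0.30 in db/db (95% CI −0.59 to 0.66). The antisense gene Junos shares 232 bases (7.28%) of the Jun exons, and whether counting used strand is not given in the sources used here.

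Junb encodes a Jun protein that can oppose c-Jun and restrain the cell cycle. It lies at chr8:84974484-84978718 (ENSMUSG00000052837, reverse), and it was the scarcest member, with 6 to 139 counts per library. Junb was at 0.362, 0.703 and 2.06 CPM in db/db and at 1.42, 2.42 and 1.76 CPM in db/+. In db/db, 2 libraries lay under all db/+ libraries, and replicate 3 lay within them. The log2 fold change of −1.19 ± 0.60 (SE, 95% CI −2.46 to 0.08) had an adjusted p of 0.267 by limma with Benjamini-Hochberg adjustment. In the second cohort Junb was at 0.163, 0.561, 2.30 and 2.17 CPM in Con+Veh and at 2.18, 2.34, 1.49 and 1.37 CPM in STZ-HFD. The Con+Veh values spread over a 14.1-fold range and the STZ-HFD values over a 1.71-fold range. The fitted log2 fold change of 0.08 ± 0.62 depended on the library weights, since without them it was 1.48, and Con+Veh replicate 1, with 6 counts of Junb, had the lowest weight. Prdx2 shares 173 bases (7.52%) of the Junb exons on the other strand.

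Atf3 encodes a stress-induced factor of the ATF/CREB family that pairs with Jun proteins and often represses. It lies at chr1:191170296-191218039 (ENSMUSG00000026628, reverse). Atf3 was at 1.84, 2.08 and 5.12 CPM in db/db and at 3.00, 6.00 and 3.86 CPM in db/+. As with Junb, 2 of the 3 db/db libraries lay under all db/+ libraries and replicate 3 lay among them. Atf3 was at 3.04, 6.50, 2.82 and 2.61 CPM in Con+Veh and at 2.51, 1.79, 5.06 and 6.12 CPM in STZ-HFD, where 2 libraries lay under all controls and 2 near the top of their range. For Atf3 the log2 fold change in db/db was −0.65 ± 0.42 and that in STZ-HFD 0.48 ± 0.46 (SE).

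Egr1 encodes a zinc-finger transcription factor induced by growth factors and by mechanical load, with a known part in tendon and matrix gene expression. It lies at chr18:34859823-34864984 (ENSMUSG00000038418, forward). Egr1 was at 88.6, 76.0, 96.8 and 110 CPM in Con+Veh and at 31.2, 63.7, 46.7 and 73.7 CPM in STZ-HFD. The highest STZ-HFD library lay just under the lowest Con+Veh library, so that the groups did not overlap, as in 4.74% of all genes tested in either direction and in 2.77% in the lower direction. No other member separated the groups in this model, and 0 of 10 did so in db/db against db/+, where 25.8% of all genes were separated. The log2 fold change of Egr1 was −0.81 ± 0.26 (SE, 95% CI −1.35 to −0.27), a ratio of 0.570, with an unadjusted p of 0.00587 and an adjusted p of 0.0936 by limma with Benjamini-Hochberg adjustment. It stayed negative in all 26 alternative fits, between −1.07 and −0.68, and its adjusted p ranged from 0.0580 to 0.810.

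In the first cohort Egr1 was at 133, 196 and 257 CPM in db/db and at 109, 106 and 231 CPM in db/+. The groups overlapped only through db/+ replicate 3, which lay between the second and the highest db/db library. The log2 fold change was 0.50 ± 0.33 (SE), with an adjusted p of 0.393 by limma with Benjamini-Hochberg adjustment. Without db/+ replicate 3 it was 0.82, and with the GC trend of each library removed it was 0.88, neither of them called.

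The change of Egr1 in db/db minus its change in STZ-HFD was 1.31 ± 0.42 (SE, 95% CI 0.43 to 2.20), with an unadjusted p of 0.00591 and an adjusted p of 0.111 by limma with Benjamini-Hochberg adjustment. No member was called for this difference by limma, edgeR or DESeq2, where limma called 1.77% of all genes. Each tool counted 1 member, Egr1, at an unadjusted p under 0.05, where limma counted 17.3% of all genes. Of all 16915 genes, edgeR called 5 and DESeq2 251 for the difference, with 1991 and 2204 at that unadjusted p. The difference of Egr1 was positive in all 25 alternative fits, from 1.07 to 1.63. It was called in 1 of them, without db/+ replicate 3, at 1.63 and an adjusted p of 0.0423 by limma with Benjamini-Hochberg adjustment. For Fos the difference was 1.03 ± 0.54, for Atf3 −1.13 ± 0.62 and for Junb −1.27 ± 0.86 (SE), and the other 6 members lay between −0.25 and 0.36.

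Nr4a1 encodes the orphan nuclear receptor Nur77, whose activity is set mainly by its amount. It lies at chr15:101254269-101274795 (ENSMUSG00000023034, forward). Nr4a1 was at 32.4, 28.5, 24.5 and 29.9 CPM in Con+Veh and at 13.9, 36.9, 25.4 and 37.7 CPM in STZ-HFD. The STZ-HFD libraries surrounded the controls, with 1 below and 2 above all of them, and the group means were 28.8 ± 3.29 and 28.5 ± 11.2 CPM (SD, n = 4). In the first cohort it was at 21.5, 27.7 and 31.2 CPM in db/db and at 20.6, 32.4 and 33.8 CPM in db/+. The 95% CIs of its log2 fold change, −0.65 to 0.48 in db/db and −0.36 to 0.65 in STZ-HFD, left out a 2-fold change in either direction.

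Ier2 encodes a small nuclear protein of the growth-factor response. It lies at chr8:84661331-84662852 (ENSMUSG00000053560, reverse), 311632 bases from Junb. Ier2 was at 4.51, 1.70, 4.04 and 3.37 CPM in Con+Veh and at 1.93, 2.48, 2.17 and 1.69 CPM in STZ-HFD. In Con+Veh, 3 of the 4 libraries lay above all STZ-HFD libraries, and Con+Veh replicate 2 lay beside the lowest of them. The log2 fold change was −0.78 ± 0.38 (SE, 95% CI −1.58 to 0.02), with an adjusted p of 0.292 by limma with Benjamini-Hochberg adjustment. Levels in the other model overlapped too: Ier2 was at 2.09, 1.52 and 3.41 CPM in db/db and at 3.88, 2.66 and 2.86 CPM in db/+, with 2 db/db libraries under all db/+ libraries and a log2 fold change of −0.47 ± 0.33 (SE).

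Dusp1 encodes the phosphatase MKP-1, which inactivates p38, JNK and ERK and so ends the signal that induces the other members. It lies at chr17:26505590-26562128 (ENSMUSG00000024190, reverse). Dusp1 was at 23.3, 20.9, 25.2 and 28.4 CPM in Con+Veh and at 12.95, 16.8, 13.7 and 25.0 CPM in STZ-HFD. In STZ-HFD, 3 of the 4 libraries lay under all controls, and replicate 4 lay among them. The log2 fold change was −0.53 ± 0.23 (SE, 95% CI −1.01 to −0.04), with an adjusted p of 0.234 by limma with Benjamini-Hochberg adjustment. Between db/db and db/+, Dusp1 was at 29.6, 21.5 and 32.5 CPM in db/db and at 34.5, 35.3 and 23.8 CPM in db/+. The groups overlapped there, and the log2 fold change was −0.19 ± 0.25 (SE).

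Transcript estimates added detail for 4 members. They summed to a minority of the gene counts, with medians over libraries of 38.45% (Egr1), 31.15% (Fosb), 29.65% (Dusp1) and 29.3% (Nr4a1). For Fosb the sum fell to 1.7% in STZ-HFD replicate 1, and for Atf3 it was 0 in 10 of the 14 libraries. Fosb had 2 coding transcripts with estimates in most libraries of the first cohort, Fosb-201 with 338 residues and Fosb-206 with 237 residues, the length of ΔFosB. Fosb-206 was estimated at 66.3, 0 and 21.1 counts in db/db, 24.9, 8.12 and 99.1 in db/+, 7.23, 20.4, 9.70 and 3.26 in Con+Veh and 0, 9.56, 0 and 6.70 in STZ-HFD. At these low numbers no order of the groups could be read. Egr1 had 2 transcripts, both with 533 residues, of which Egr1-201 starts further upstream. Its share of the Egr1 estimate was 16.1% to 22.1% in db/db, above all db/+ libraries (8.36% ± 2.11, SD, n = 3), and 1.3% to 16.0% in Con+Veh and 3.0% to 24.1% in STZ-HFD, where the groups overlapped. No test was run on these shares, and how many transcripts of other genes separated db/db from db/+ was not counted. By level, 25.8% of all genes tested did so. Egr1-201 was estimated at 527, 937 and 1331 counts in db/db and at 187, 140 and 595 counts in db/+. Nr4a1 was carried mainly by Nr4a1-202, with mean shares of 77.3% to 92.3% in the 4 groups. Dusp1 estimates moved between 3 coding transcripts from library to library, with Dusp1-202 taking 0% to 100% within db/db alone.

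Among replicates, some members were steady and others were not. The SD of log2 CPM within groups was 0.33 for Dusp1 and for Fosl2 and 1.09 for Junb, beside a median of 0.53 over all genes tested. Fosb (0.73) and Atf3 (0.70) were above that median too, Fos (0.57) and Jun (0.54) were near it, and Egr1 (0.48), Ier2 (0.46) and Nr4a1 (0.44) were below it. Single libraries were high or low for many members together. The library of db/db replicate 3 was the highest of its group for 8 of 10 members, all but Fos and Jun, and db/db replicate 2 was the highest for 0 and the lowest for 5. Con+Veh replicate 2 was the lowest for 5 members and the highest for Atf3 only. STZ-HFD replicate 1 was the lowest for 5 members with TMM scaling (Dusp1, Egr1, Fosl2, Jun and Nr4a1). By library total alone it was the lowest of its group for none of these 5, and the highest for Dusp1, Fosl2 and Jun. Its low ranks therefore depended on the TMM factor.

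**Figure D3:**
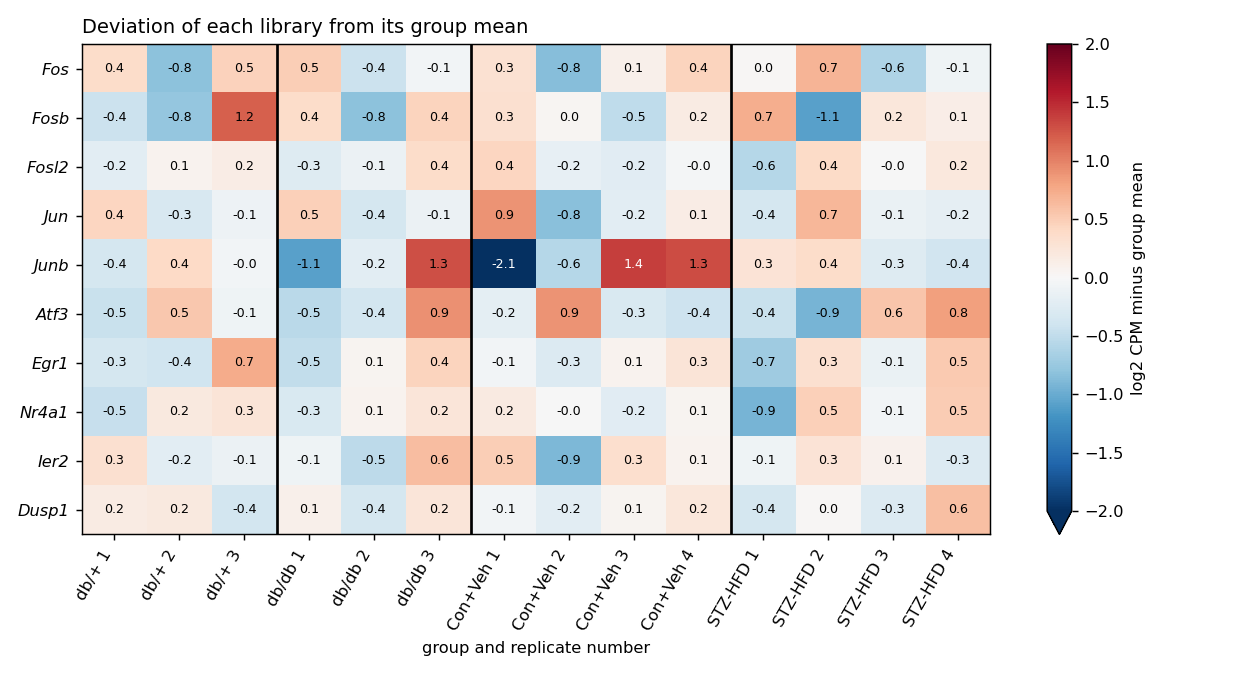
Deviation of each library from its group mean (color and number, log2 CPM minus the group mean; rows are the 10 members, columns the 14 libraries grouped by condition). The column of db/db replicate 3 is positive for 8 members, Junb has the widest deviations, and Fos and Jun share their signs in most libraries while Atf3 often has the opposite one.

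After the group means were taken out, the members did not vary as 1 block. Over the 14 libraries, Pearson r between 2 members had a median of 0.179 over 45 pairs, with 33 pairs positive. Fosl2, Nr4a1 and Egr1 varied together, with r of 0.881 for Fosl2 and Nr4a1, 0.766 for Egr1 and Nr4a1 and 0.688 for Fosl2 and Egr1. Fos, Jun and Ier2 also varied together, with r of 0.756 for Fos and Jun, 0.675 for Jun and Ier2 and 0.571 for Fos and Ier2. The 9 pairs between these trios ran from −0.018 for Fos and Nr4a1 to 0.413 for Fosl2 and Jun, with 0.378 for Fosl2 and Ier2 and 0.293 for Fos and Egr1. Atf3 ran against Fos (−0.718) and Jun (−0.587). The points of a pair share the library and its depth, and both trios were picked after their values were seen.

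Genes that act with or around the members were read from 8 lists. Of 12 other Fos, Jun and ATF partners, 8 were tested and 0 were called by limma in either model. At an unadjusted p under 0.05, limma counted 1 in db/db and 0 in STZ-HFD, beside 21.1% and 17.9% of all genes. DESeq2 and edgeR called 0 partners, with 1 such gene each in each model. Of 21 upstream kinases and transcription factors, 0 were called by limma in either model, but 15 had an unadjusted p under 0.05 in STZ-HFD, 11 lower and 4 higher, beside 9.54% and 8.34% of all genes in these directions. In db/db the number was 6, beside 21.1% of all genes. The ternary complex factors Elk1 (−0.66 ± 0.25), Elk3 (−0.86 ± 0.24) and Elk4 (−0.50 ± 0.17), which sit with serum response factor on immediate early promoters, had negative log2 fold changes, as had the ERK gene Mapk3 (−0.93 ± 0.23, SE). The JNK gene Mapk8 (0.84 ± 0.35, SE) was positive. Its unweighted means lay within their spread, at 31.6 ± 28.5 CPM in Con+Veh and 35.4 ± 19.1 CPM in STZ-HFD (SD). The highest Mapk8 library was in Con+Veh, at 74.2 CPM, against at most 59.1 CPM in STZ-HFD. The median of this list in STZ-HFD was −0.40. In this list DESeq2 and edgeR called 0 in either model, with 9 and 9 at an unadjusted p under 0.05 in STZ-HFD and 4 and 2 in db/db. The numbers over all 16915 genes were 2343 and 2136 in STZ-HFD and 2138 and 1891 in db/db.

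In STZ-HFD, limma called 3 listed genes lower and 0 higher, beside 1.31% and 1.3% of all genes. Klf4, an early-response transcription factor, was lower, at 124 ± 44.3 CPM in Con+Veh and 64.2 ± 21.5 CPM in STZ-HFD (SD, n = 4 each), with a log2 fold change of −1.17 ± 0.23 and an adjusted p of 0.0130 by limma with Benjamini-Hochberg adjustment. Zfp36l2, which speeds the decay of AU-rich mRNAs, was lower at 52.6 ± 13.7 against 27.4 ± 9.79 CPM, with a log2 fold change of −1.03 ± 0.24 and an adjusted p of 0.0258 by the same test. Ccnd1, the AP-1 target cyclin D1, was lower at 41.3 ± 12.5 against 20.6 ± 8.78 CPM, with a log2 fold change of −1.08 ± 0.25 and an adjusted p of 0.0269 by the same test. All 3 calls were lost with edgeR, DESeq2 and limma without weights, and also without any 1 of Con+Veh replicates 3 and 4 and STZ-HFD replicates 3 and 4. Over all genes these settings called 29, 277 and 19, and then 17, 18, 18 and 164, against 441 in the main fit. The 4 endothelial markers summed to 821 CPM in each of Con+Veh replicates 3 and 4, which had the highest weights (3.05 and 1.81), against 159 and 183 CPM in replicates 1 and 2 and 150 to 419 CPM in STZ-HFD. The part of this in the 3 calls was not tested. Over the 8 lists, 105 genes tested, DESeq2 and edgeR called 0 in STZ-HFD, with 23 and 22 at an unadjusted p under 0.05, and 0 in db/db, with 13 and 10. Of all 16915 genes, DESeq2 and edgeR counted 2343 and 2136 at that p in STZ-HFD, and 2138 and 1891 in db/db. In db/db, limma called 2 listed genes higher and 0 lower, beside 1.23% and 0.432% of all genes. Spry4, an inhibitor of growth-factor signaling to ERK, was at 15.4 ± 3.09 CPM in db/+ and 31.3 ± 4.37 CPM in db/db (log2 fold change 1.03 ± 0.25, adjusted p of 0.0456 by limma with Benjamini-Hochberg adjustment). The heat shock gene Hspa1a was at 6.25 ± 1.01 and 13.9 ± 2.57 CPM (1.17 ± 0.27, adjusted p of 0.0376 by the same test), but reads of the near-identical Hspa1b may be split between both. These calls were lost with edgeR, DESeq2 and limma without weights, and without any 1 library of the first cohort, and that of Spry4 also without any 1 of Con+Veh replicates 1, 3 and 4. In db/db edgeR called 0 of all genes, DESeq2 212 and limma without weights 9, against 281 in the main fit. Without 1 library of the first cohort, 21 to 143 genes were called, so that losing a call was not particular to these genes.

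**Figure D4:**
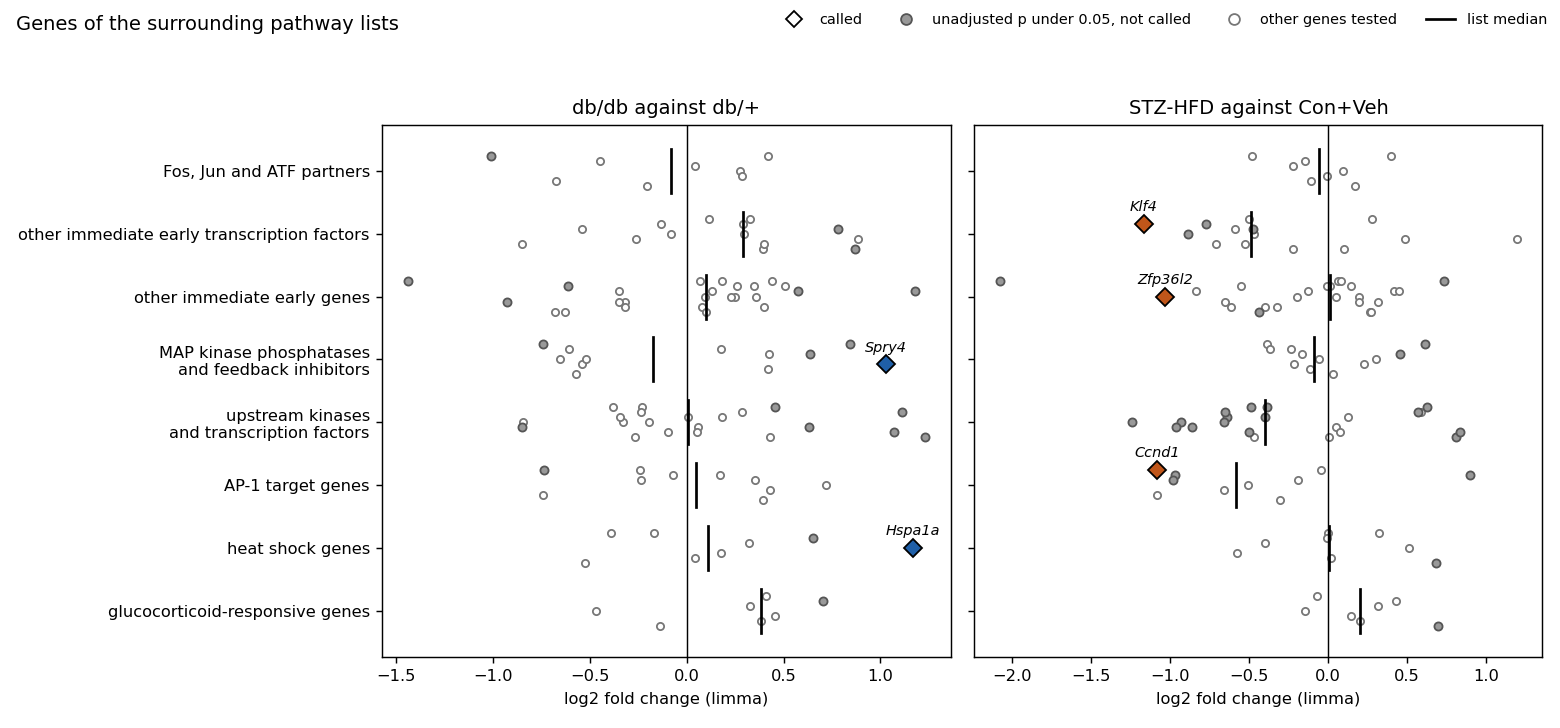
Log2 fold changes (x axis, limma) of the genes of the 8 lists around the immediate early genes (y axis, lists), in db/db against db/+ and in STZ-HFD against Con+Veh. Most of the 21 upstream genes lie left of 0 in STZ-HFD, where their median is −0.40, and the called genes are Klf4, Zfp36l2 and Ccnd1 in STZ-HFD and Spry4 and Hspa1a in db/db.

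Of 16 other early-response transcription factors, 14 were tested, and their median log2 fold change was −0.49 in STZ-HFD and 0.29 in db/db. The corresponding values were −0.58 and 0.05 for the 10 AP-1 targets tested, 0.01 and 0.10 for 25 other immediate early genes, and −0.09 and −0.17 for the 12 MAP kinase phosphatases and feedback inhibitors tested. They were 0.01 and 0.11 for 8 heat shock genes and 0.20 and 0.38 for 7 glucocorticoid-responsive genes. The relatives of Egr1, Egr2 (−0.59 ± 0.57) and Egr3 (−0.47 ± 0.41), and the relative of Nr4a1, Nr4a2 (−0.53 ± 0.41, SE), were not called in STZ-HFD.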

How the data were processed

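IVD RNA from 14 mice in 4 groups was sequenced in bulk. The authors pulverized frozen discs and, per the labels, amplified the low RNA input before sequencing. Whole-number gene counts were deposited by the authors, who per the submitters' processing notes used bcl2fastq, STAR and featureCounts (Subread) on GRCm38. The deposited transcript table holds estimated counts from Salmon. The gene table had 287 repeated lines, which were identical and used once, and 55227 of 55487 genes were in GENCODE M21, which gave lengths, GC content and positions.

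From the counts, limma 3.58.1 (voomWithQualityWeights) with edgeR 4.0.16 TMM factors in R 4.3.3 was fitted once over all 14 libraries, with 1 mean per group, for genes above 1 CPM in at least 3 libraries. The contrasts were db/db against db/+, STZ-HFD against Con+Veh, and the first minus the second. Benjamini-Hochberg adjustment ran over 16915 genes, and a call needed an adjusted p under 0.05 with a log2 fold change of 1 or more in size. Levels are CPM with TMM scaling, and intervals are at 95%. Correlations used log2 CPM with a prior count of 2 minus the group mean. The fits were tested on simulated data.

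The members and lists were chosen with earlier results of these data known. The text names all 10 members, the called genes of each list (at most 3 per contrast and direction by size) and genes from the 5 most correlated with the members' mean. Some items that this rule or the lists include are not reported here. Other names were chosen after their values were seen. Replicate pairs within a group differed by more than sampling noise (chi-square per degree of freedom 47.2 to 499 over 18 pairs), so each library counted as 1 sample. Same-numbered libraries were not correlated in their deviations (mean r −0.0911 in the first cohort and −0.111 in the second), so the numbers were not taken to pair libraries. Alternatives were the edgeR quasi-likelihood test, DESeq2 1.42.0, limma without weights, RLE factors, filterByExpr, no filter, each model fitted alone, a replicate block, Salmon gene totals rounded to whole counts, removal of ribosomal RNA genes, removal of the GC trend, no fold minimum, and leaving out libraries, among them the pair with names ending in RIP, whose meaning the labels do not give. Depth, given as counts per library, sets counting error only.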

Additional observations from a re-analysis of the deposited data

Results flagged for a closer look

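Atf3 was at 6.503 CPM in Con+Veh replicate 2, far from the other 3 Con+Veh libraries at 2.607 to 3.043 CPM. The heat shock gene Hspa1a stood out in the same library, at 22.34 CPM against 9.668 to 10.87 CPM. Jun was at 72.45 CPM in STZ-HFD replicate 2, against 35.73 to 41.75 CPM in the other 3 STZ-HFD libraries. These 3 single libraries passed Dixon's 95% critical value (0.829 for 4 libraries) among 42 groups tested, and chance alone passes about 1 in 20.

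Klf6, an early-response transcription factor, had a different change in the 2 models. Klf6 was at 36.2 ± 2.89 CPM in db/+ and 62.8 ± 10.2 CPM in db/db (SD, n = 3 each), and at 83.2 ± 4.53 CPM in Con+Veh and 60.8 ± 15.0 CPM in STZ-HFD (SD, n = 4 each). The difference of its log2 fold changes was 1.259 (SE 0.28), with an adjusted p of 0.0334 by limma with Benjamini-Hochberg adjustment. Its change alone was called in neither model, at 0.78 (adjusted p of 0.0625) in db/db and −0.48 (adjusted p of 0.166) in STZ-HFD by the same test. The difference stayed positive in 25 alternative fits, from 0.997 to 1.51, and was called in 10 of them, DESeq2 among them, but not by edgeR or limma without weights.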

How the results depend on the processing

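The counts of members called were 0 in both models under all alternatives run, and for the difference of the models 0 to 1 without 1 library, with Egr1 called at 1.63 without db/+ replicate 3. Counts over all genes depended strongly on the setting. In db/db they were 281, then 0 with edgeR, 9 without weights, 534 with no filter, 436 with each model alone, 1484 with the replicate block, 144 from Salmon totals and 166 with the GC trend removed (146 higher and 20 lower, against 208 and 73), and 21 to 392 without 1 library. In STZ-HFD they were 441, then 29 with edgeR, 277 with DESeq2, 19 without weights, 217 with filterByExpr, 130 with no filter, 287 alone, 6 with the replicate block, 56 from Salmon, 244 without the RIP pair and 17 to 642 without 1 library. For the difference they were 299, then 5, 3 without weights, 154 with filterByExpr, 2 with the replicate block, 62 from Salmon, 140 with GC removed, 114 without the RIP pair and 4 to 423 without 1 library. Listed genes called in db/db were 2, then 0 with edgeR, DESeq2 or no weights, 1 with filterByExpr or Salmon, 5 alone, 9 with the replicate block and 0 to 3 without 1 library. In STZ-HFD they were 3, then 0 with edgeR, DESeq2, no weights, no filter, Salmon or the block, 1 with filterByExpr or GC removed, 5 with no fold minimum and 0 to 5 without 1 library. The block gave 2 members an unadjusted p under 0.05 in db/db (Junb and Ier2) and called none. By library total alone, 30 of 40 group means of the members stayed within 1 SD.

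Small changes turned sign. In db/db with the GC trend removed, log2 fold changes became 0.0944 (Dusp1), 0.0618 (Fos), 0.171 (Fosb), 0.0427 (Ier2) and 0.287 (Nr4a1). Fos was 0.102 from Salmon and 0.0555 with no filter, Fosb 0.0148 with the block and Fosl2 −0.561 from Salmon, which holds only retained-intron transcripts of Fosl2. In STZ-HFD, Fosb became −0.0153 (DESeq2), −0.0307 (edgeR), −0.202 (Salmon), −0.0835 (no filter), −0.181 (no weights) and −0.133 (without the RIP pair), and Nr4a1 −0.0053 (DESeq2), −0.0182 (edgeR), −0.111 (no weights) and −0.0584 (without the RIP pair). Atf3 was −0.0969 without weights, Jun 0.0782 from Salmon and Junb −0.214 with the block. The difference became 0.168 (GC removed) and 0.0116 (no filter) for Fosb, −0.490 for Fosl2 and −0.148 for Ier2 from Salmon, and 0.0596 (GC removed) and 0.0207 (no weights) for Nr4a1. Without 1 library the ranges in db/db were −0.54 to 0.16 (Fos), −0.65 to 0.39 (Fosb), −0.19 to 0.26 (Jun) and −0.29 to 0.0586 (Nr4a1), in STZ-HFD −0.26 to 0.28 (Fosb), −0.22 to 0.91 (Junb) and −0.0191 to 0.24 (Nr4a1), and for the difference −0.73 to 0.31 (Fosb) and −0.0025 to 0.58 (Ier2). Of 1180 comparisons with an alternative, counts of calls included, 966 kept their direction and side of the threshold (for counts, stayed within 1.5 times), 76 lost a call, 1 gained one, 86 counts or levels moved by more and 51 changed sign. The cause was not tested. At 6 to 139 counts per library, Junb was the member most limited by depth.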

Other observations

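Outside the members, genes whose deviations from their group means closely followed the mean of the 10 members over the 14 libraries were Abi3bp (Pearson r 0.878), Htra3 (0.871), Sod3 (0.869) and Fmod (0.866). Abi3bp and Fmod encode extracellular matrix proteins, the latter the collagen-binding proteoglycan fibromodulin, and Sod3 encodes the extracellular superoxide dismutase. Their levels differed widely between libraries, with Abi3bp at 210 to 3600 CPM, Fmod at 122 to 2324 CPM and Sod3 at 21.1 to 472 CPM. These genes came from the top of a ranking over all genes tested, and the points share library and depth.

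The member closest to the mean of the other 9 was Egr1 (r = 0.685), followed by Fosl2 (0.573) and Ier2 (0.480), and Atf3 (−0.111), Fosb (−0.030) and Junb (−0.022) were the farthest from it.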
